A study of Mus musculus with 8 samples.

Results

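The genes described here encode the proteins of the cytosolic ribosome, chosen by symbol as the Rpl, Rplp, Rps and Rpsa genes of the nuclear genome, with Rpl8 and Rpl4 as markers and with mitochondrial ribosomal proteins and numbered pseudogenes left out. The rule found 81 genes among the 15452 named rows of the expression table, 49 for the large subunit and 32 for the small subunit. Among these, 4 are named as paralogues (Rpl22l1, Rpl32l, Rpl7l1 and Rps27l), while Fau, which encodes a ribosomal protein fused to a ubiquitin-like protein, falls outside the rule by name.

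The study asked which genes respond to Norrin in bEnd.3 cells, a line of immortalised endothelial cells from mouse brain grown in high-glucose DMEM with serum. The 4 vehicle cultures received PBS with 0.1% BSA, and the 4 Norrin cultures received recombinant Norrin at 200 ng/ml for 24 h from 24 h after seeding. The labels name no genetic change, and a treatment tag calls the control untreated where the titles call it vehicle. The labels call the 4 samples of a group biological replicates and say no more, so a p-value here reflects only how these samples varied.

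Each ribosome joins a small subunit, which reads the mRNA, to a large subunit, which forms the peptide bond. Ribosomal protein mRNAs are among the most abundant in growing cells, and most carry a terminal oligopyrimidine tract at the 5′ end, a stretch that begins with C and through which mTORC1 and the RNA-binding protein Larp1 regulate their translation. Norrin is a secreted ligand that binds the receptor Fzd4 with Lrp5 or Lrp6 and the co-receptor Tspan12, and signals through β-catenin in retinal and brain endothelium.

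Library totals ran from 12463943 to 15220582 counts. The endothelial markers were all in the table (10 of 10), with a summed level of 7634 to 7884 CPM (the usual unit of counts relative to the library total, here scaled by TMM) under vehicle and 7432 to 7655 CPM under Norrin. Of the other markers, the table held 3 of 7 mural, 3 of 6 fibroblast, 1 of 5 astrocyte, 2 of 5 microglial and 2 of 5 neuronal genes. Their summed levels under vehicle and Norrin were 3.75 to 8.23 and 4.39 to 6.41 CPM for mural, 5.02 to 8.22 and 7.59 to 9.70 CPM for fibroblast, 46.7 to 54.1 and 43.9 to 57.7 CPM for astrocyte, 91.1 to 101.8 and 91.4 to 100.9 CPM for microglial, and 36.6 to 40.1 and 32.3 to 49.3 CPM for neuronal genes. Axin2, a direct target of β-catenin signalling chosen as a check after its values were seen, measured 0.360 ± 0.214 CPM under vehicle and 6.71 ± 1.04 CPM under Norrin (SD, n = 4), an 18.7-fold difference (edgeR, adjusted p = 1.18e-09). Its vehicle values, 0.141 to 0.638 CPM, rest on few reads, as 3 counts equalled 0.193 to 0.241 CPM. The size of the fold is therefore imprecise.

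No cytosolic ribosomal protein gene passed the test for a difference between Norrin and vehicle. All 81 had enough counts to be tested, and 0 were called higher and 0 lower at an adjusted p under 0.05 in edgeR's quasi-likelihood test, where 2.17% of the 13666 genes tested were called, 1.2% higher and 0.966% lower. DESeq2 and limma-voom also called 0 of the 81. At a share of 2.17%, few calls would fall among 81 genes, so 0 calls alone says little. At an unadjusted p under 0.05, 3 genes were counted (Rps27l, Rplp1 and Rps15), or 3.70% of the 81, against 11.3% of all tested genes. The lowest adjusted p among the 81 was 0.317.

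The estimates were small and most were narrow. Log2 fold changes (Norrin over vehicle) ran from −0.30 for Rpl12 to 0.41 for Rps28, with a median of 0.05 beside 0.00 for all tested genes, and 50 lay above 0 and 31 below. The 95% interval lay within 1.2-fold in either direction for 31 genes, within 1.5-fold for 65 and within 2-fold for 80. Over all tested genes these shares were 29.5%, 66.9% and 85.8%. Standard errors followed the level, from 0.04 for the most abundant genes to 0.43 for Rps29, and 10 genes had a mean of under 50 counts per library. For the low genes Rpl34, Rps29 and Rpl22l1 the interval included 1.5-fold in both directions, so a change of that size was not detectable at this depth.

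**Figure D1:**
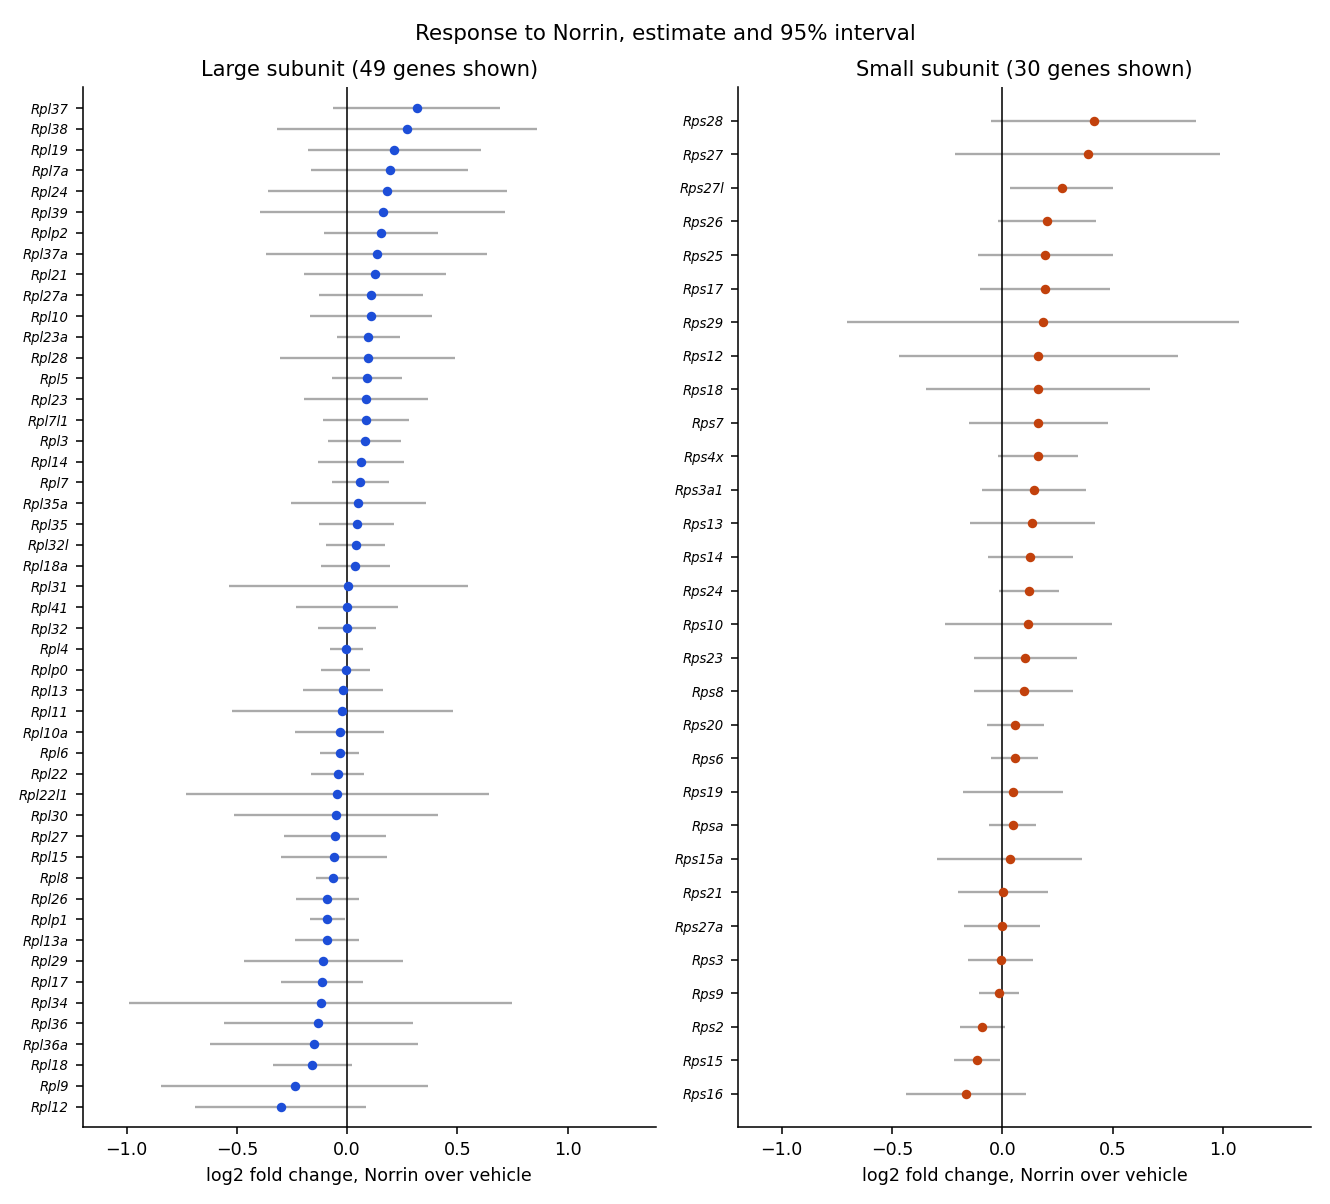
Log2 fold change, Norrin over vehicle, of 49 large-subunit and 30 small-subunit genes (point) with its 95% interval from the edgeR fit (line), n = 4 libraries in each group. The points lie between −0.30 and 0.41, and 0 of the 81 genes passed an adjusted p of 0.05.

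The small-subunit genes had a median log2 fold change of 0.11, with 26 of 32 above 0, and the large-subunit genes a median of 0.00, with 24 of 49 above 0. The small-subunit value rested on a single library. Without Norrin replicate 1 the small-subunit median was 0.02, with 17 of 32 above 0, and the large-subunit median was −0.02, with 22 of 49 above 0.

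As a whole, the 81 genes held 0.872%, 0.871%, 0.860% and 0.849% of the total counts in vehicle replicates 1 to 4, and 0.912%, 0.823%, 0.847% and 0.839% in Norrin replicates 1 to 4. Norrin replicate 1 was the highest of the 8 libraries and Norrin replicate 2 the lowest, so the vehicle range lay inside the Norrin range. The mean share was 0.863% ± 0.011 under vehicle and 0.855% ± 0.039 under Norrin (SD, n = 4), a ratio of 0.990. Counts assigned to near-identical copies with rows of their own, described below, are not in these shares. The shares are therefore not a measure of all ribosomal protein mRNA in these cells. In bulk RNA such as this, fewer cells of a kind and less of an RNA per cell cannot be told apart.

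Among the large-subunit genes, Rpl8 (chr15:76904078-76906314, + strand; coordinates here are those of the GENCODE vM21 annotation on GRCm38) encodes a protein close to the peptidyl transferase centre. It measured 1138, 1131, 1048 and 1135 CPM in the vehicle libraries and 1078, 1067, 1011 and 1098 CPM in the Norrin libraries. Only vehicle replicate 3 lay within the Norrin range, and the log2 fold change was −0.07 ± 0.04 (SE; edgeR, adjusted p = 0.541). Rpl4 (chr9:64173375-64178666, + strand), whose protein lines part of the exit tunnel, measured 994, 967, 968 and 989 CPM under vehicle and 1043, 968, 941 and 953 CPM under Norrin. The groups overlapped, and the 95% interval of its log2 fold change ran from −0.08 to 0.07.

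The P stalk recruits the elongation factors to the large subunit, with Rplp0 as its base and Rplp1 and Rplp2 as its arms. Rplp1 measured 981, 981, 901 and 913 CPM under vehicle and 889, 850, 917 and 893 CPM under Norrin. The 2 highest libraries were vehicle ones, but Norrin replicate 3 lay above vehicle replicates 3 and 4, and the log2 fold change was −0.09 ± 0.04 (edgeR, adjusted p = 0.322). Rplp0 measured 210, 193, 187 and 186 CPM under vehicle and 203, 178, 200 and 191 CPM under Norrin, with a log2 fold change of −0.01. Rplp2 stood at 24.7, 24.8, 23.9 and 20.9 CPM under vehicle and 24.6, 24.0, 34.9 and 21.3 CPM under Norrin. Its log2 fold change of 0.15 ± 0.13 came with 1 high library, Norrin replicate 3.

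Rpl5 and Rpl11 bind 5S rRNA and, when not built into ribosomes, bind and inhibit Mdm2. Rpl5 measured 59.4, 58.8, 58.7 and 54.9 CPM under vehicle and 65.0, 60.2, 67.6 and 54.0 CPM under Norrin. The groups overlapped (log2 fold change 0.09 ± 0.08, edgeR, adjusted p = 0.759). Rpl11 was far lower, at 3.54 to 3.91 CPM under vehicle and 2.88 to 4.61 CPM under Norrin, with a log2 fold change of −0.02 ± 0.24. Of the genes whose proteins lie at the exit tunnel or near its mouth, Rpl17 had a log2 fold change of −0.11 ± 0.09, Rpl39 of 0.16 ± 0.27 and Rpl22 of −0.04 ± 0.06. The adjusted p was above 0.7 for each of these.

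Among the small-subunit genes, Rps3, whose protein sits at the mRNA entry channel, measured 667, 651, 625 and 651 CPM under vehicle and 759, 605, 609 and 607 CPM under Norrin. Norrin replicate 1 was the highest of all 8 libraries and the other Norrin libraries were the lowest, and the log2 fold change of the means was −0.01 ± 0.07. Rps2, also at the entry channel, measured 276, 280, 255 and 246 CPM under vehicle and 237, 242, 254 and 260 CPM under Norrin, with overlapping groups (log2 −0.09 ± 0.05, edgeR, adjusted p = 0.542).

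Rps6, the substrate of S6 kinase, measured 154, 162, 155 and 158 CPM under vehicle and 164, 159, 168 and 162 CPM under Norrin. The groups overlapped, with Norrin replicates 1 and 3 the highest (log2 0.06 ± 0.05, edgeR, adjusted p = 0.793). Rps19, mutated in Diamond-Blackfan anaemia in humans, had a log2 fold change of 0.05 ± 0.11 and Rpsa, which also serves as a laminin receptor, of 0.05 ± 0.05. Rps27a, which is made as a fusion with ubiquitin, stood at 63.5 to 75.7 CPM under vehicle and 60.2 to 83.7 CPM under Norrin (log2 −0.00 ± 0.08). Rps15 measured 225, 232, 209 and 216 CPM under vehicle and 211, 192, 205 and 205 CPM under Norrin. Only Norrin replicate 1 lay above the lowest vehicle library, and the log2 fold change of −0.12 ± 0.05 did not pass adjustment (edgeR, adjusted p = 0.348).

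Of the larger estimates, none passed the test. Rps28, near the mRNA exit channel, had a log2 fold change of 0.41 ± 0.23 (edgeR, adjusted p = 0.523), at 3.61 to 5.08 CPM under vehicle and 4.67 to 7.10 CPM under Norrin. Rps26 measured 38.9, 41.0, 47.1 and 50.7 CPM under vehicle and 64.4, 46.8, 47.6 and 45.6 CPM under Norrin. Leaving aside replicate 1, its Norrin libraries lay inside the vehicle range (log2 0.20 ± 0.11, edgeR, adjusted p = 0.508). The others among the lowest unadjusted p-values were Rps4x, with a log2 fold change of 0.16 ± 0.09, Rps24 with 0.12 ± 0.07 and Rpl18 with −0.16 ± 0.09, and their adjusted p lay between 0.528 and 0.532.

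The paralogues are genes closely related in sequence to another ribosomal protein gene. Rps27l (chr9:66946086-66949516, + strand), which p53 activates, was the only one of the 81 genes whose groups did not overlap, against 7.01% of all tested genes. It measured 20.4, 18.4, 20.4 and 21.3 CPM under vehicle and 28.5, 22.7, 22.6 and 23.2 CPM under Norrin, with every Norrin library above every vehicle library and replicate 1 well above the rest. Its log2 fold change was 0.27 ± 0.11 (edgeR, adjusted p = 0.317). Its parent Rps27 was counted at 2.07 to 3.54 CPM under vehicle and 2.21 to 5.56 CPM under Norrin (log2 0.39 ± 0.29). A stretch of their coding sequences (bases 10 to 69 from the start codon, GENCODE transcripts) is shown because it tells the genes apart, with capitals at the 19 bases that differ.

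Rps27: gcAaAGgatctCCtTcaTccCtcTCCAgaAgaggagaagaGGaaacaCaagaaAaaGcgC
Rps27l: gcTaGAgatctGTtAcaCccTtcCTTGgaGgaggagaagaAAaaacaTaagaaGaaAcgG

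The coding sequences of Rps27 and Rps27l were 76.1% identical over 255 bases. Rpl32 and Rpl32l were far closer, at 96.0%, and their levels were close too. Rpl32 measured 158, 148, 143 and 154 CPM under vehicle and 173, 135, 147 and 146 CPM under Norrin, and Rpl32l 148, 137, 136 and 138 CPM under vehicle and 167, 132, 133 and 141 CPM under Norrin. Both were highest in Norrin replicate 1. GENCODE lists Rpl32l on chromosome 10 as a processed pseudogene, and whether its counts came from its own RNA or from Rpl32 was not tested. Rpl7l1 (log2 0.09 ± 0.10) and its relative Rpl7 (0.06 ± 0.06) also had their highest Norrin value in replicate 1. Rpl22l1, at 1.2 to 2.5 CPM over the 8 libraries, was near the limit of what these counts resolve (log2 −0.04 ± 0.34).

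**Figure D2:**
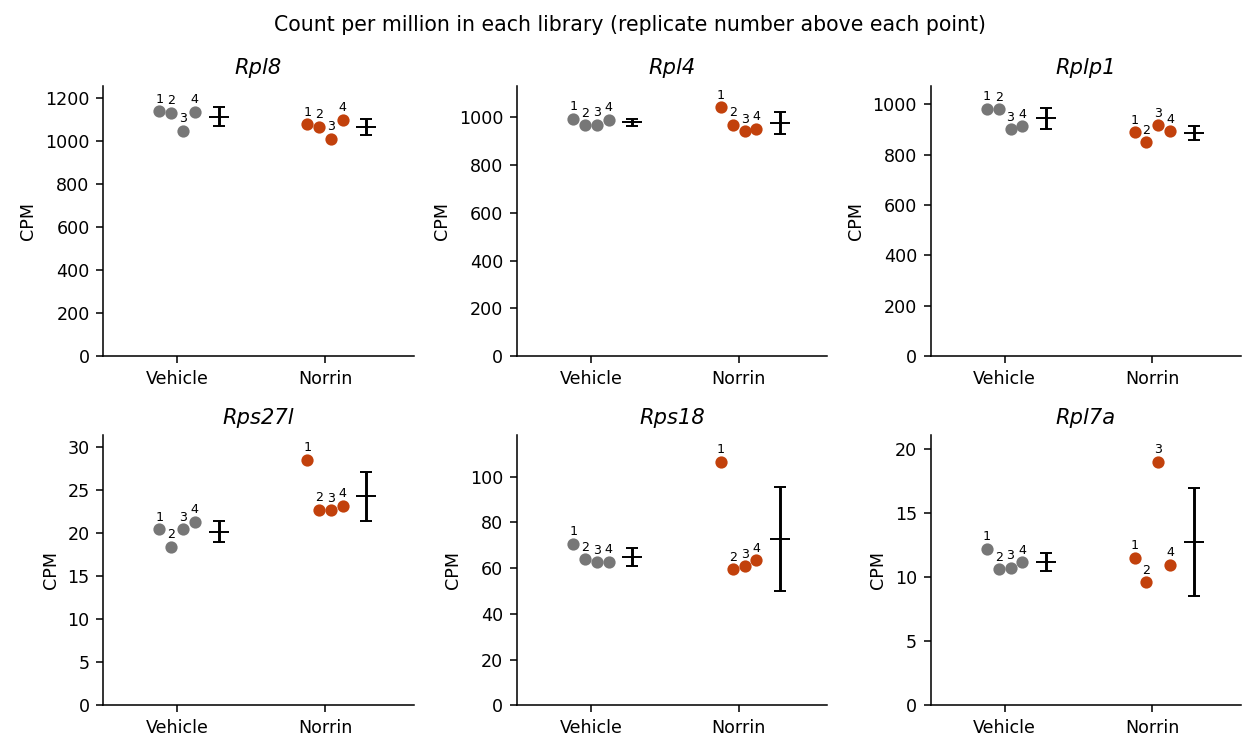
CPM (counts relative to the scaled library total) of 6 genes in each of the 8 libraries, with the replicate number above each point and mean ± SD (n = 4) beside each group. Rpl8, Rpl4 and Rplp1 differed little between groups, Rps27l was at 22.6 CPM or more in every Norrin library and at 21.3 CPM or less in every vehicle library, and Rps18 and Rpl7a each had 1 high Norrin library, replicate 1 and replicate 3.

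Levels per length differed widely between these genes. The authors' deposited vehicle RPKM (reads scaled to gene length and library size) had a median of 50.8 over the 81 genes, beside 10.8 over all rows. It ran from 2739 for Rplp1 to 2.98 for Rpl34, a 919-fold range. Most of these proteins are used in near-equal number in each ribosome, but Rplp1 belongs to the P stalk, which is an exception. Outside the stalk the highest was Rpl8. The highest were Rplp1, Rpl8 at 1439, Rps3 at 887, Rpl4 at 778 and Rps21 at 713 RPKM. The 6 highest held 48.5% of the summed RPKM of all 81. The lowest were Rpl34, Rps27 at 4.62, Rps29 at 5.22, Rpl22l1 at 5.23, Rpl9 at 5.24 and Rpl24 at 6.43 RPKM, below the median gene of the table. The deposited RPKM of Rps27 corresponds to a length of 596 bases where its coding sequence has 255, so its place among the lowest is uncertain. Per kilobase of coding sequence, its vehicle level was 10.6 CPM. The place of Rpl34 is uncertain too, as its copy Rpl34-ps1, which differs at 2 of 354 bases, stood at 778 RPKM. In all, 72 of the 81 lay above that median. The RPKM values are group values of the authors with no spread of their own.

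**Figure D3:**
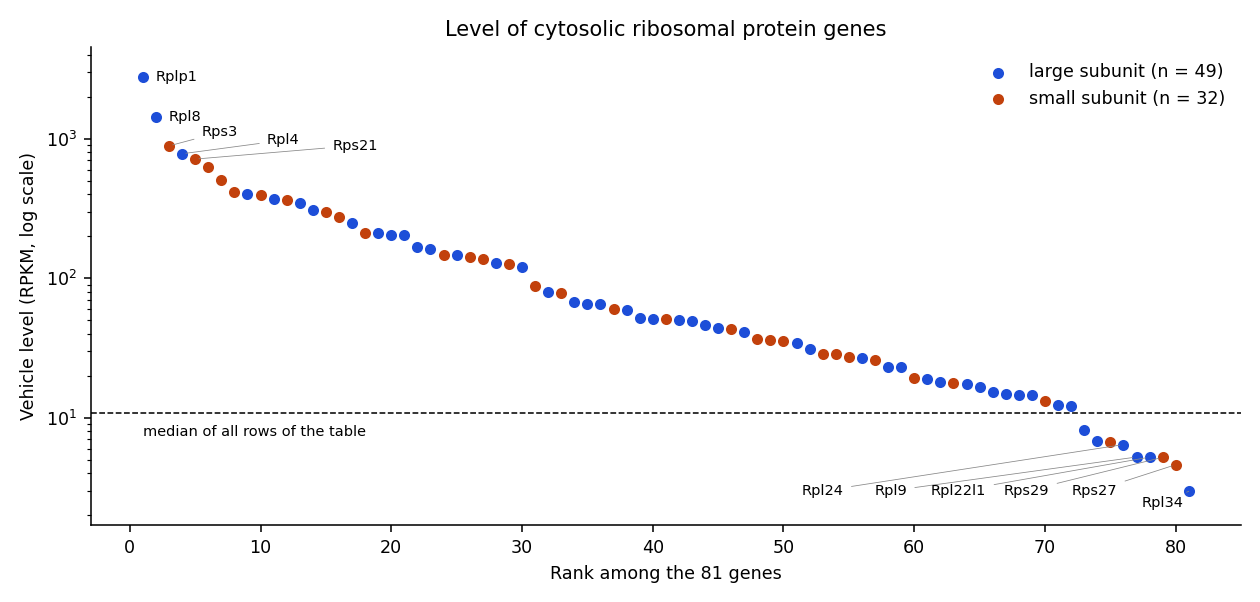
Deposited vehicle RPKM (log scale) of the 81 genes, ranked from highest to lowest, with the 49 large-subunit and 32 small-subunit genes in different colours. Levels fell from 2739 RPKM for Rplp1 to 2.98 RPKM for Rpl34, and the dashed line marks the median of all rows, 10.8 RPKM.

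Ribosomal protein genes have many processed copies in the mouse genome, and reads from such copies and their parents can be hard to tell apart. Of the 81 genes, 77 had at least 1 annotated copy, meaning a transcript of another gene with at least 95% identity over at least 90% of the coding sequence, with a median of 5 copies and a highest number of 56, for Rpl21. Rpl8, Rps3 and Rps27l were among the 4 without one. Outside the 81 there were 560 different copies, 544 of them listed as pseudogenes, and 18 of these had rows of their own in the table.

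Levels went with this shared sequence. In the 10 genes in which under 10% of the 100-base windows of the coding sequence also occurred exactly in another gene's transcript, the median vehicle RPKM was 498, with a range of 50.9 to 1439. It was 203 in the 13 genes with 10% to 50% of windows shared, 41.0 in the 29 genes with 50% to 90%, and 25.9 in the 28 genes with 90% or more, where the range was 4.62 to 210. Spearman's rho between vehicle RPKM and the share of windows was −0.54 over the 80 genes long enough to have a window, a description across genes of the same libraries. The bins were similar in their response, with median log2 fold changes of 0.00, 0.05, 0.06 and 0.07. How the counting assigned a read that matched several genes is not given in the sources used here, and its part in these levels was not tested.

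Of the 18 copies with rows of their own, 9 had a higher vehicle RPKM than the parent and 9 a lower one. The length of the copy's transcript was not limited, so a copy can be part of a longer gene. The RPKM of such a row is that of the whole gene. Rpl34 stood at 2.98 RPKM and Rpl34-ps1, which GENCODE lists as a processed pseudogene on chromosome 6, at 778 RPKM. Rpl37 stood at 23.3 RPKM and Rpl37rt, on chromosome 5, at 1300 RPKM. Rps27 stood at 4.62 RPKM and Rps27rt, on chromosome 9, at 341 RPKM. The same order was seen for Rpl29 and Gm8210 (17.4 and 195 RPKM), Rpl31 and Rpl31-ps12 (8.12 and 61.4 RPKM) and Rpl11 and Gm6745 (6.84 and 33.4 RPKM). In the other direction, Gm10362 stood at 9.79 RPKM and its parent Rpl17 at 59.6 RPKM, and Gm13215 at 4.65 RPKM and its parent Rps27a at 148 RPKM. Where a near-identical copy stood higher, the level of the parent is uncertain, and which gene its reads came from was not tested.

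The sequences show how little separates them. Rps27rt was identical to Rps27 over all 255 coding bases, Rpl37rt differed from Rpl37 at 1 of 294 and Rpl34-ps1 from Rpl34 at 2 of 354. Gm8210 differed from Rpl29 at 3 of 483 bases and Rpl31-ps12 from Rpl31 at 4 of 375. The stretches below are coding bases 219 to 278 of Rpl37 and 102 to 161 of Rpl34 with the matching bases of the copy, from GENCODE vM21 transcripts, and capitals mark the base that differs.

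Rpl37: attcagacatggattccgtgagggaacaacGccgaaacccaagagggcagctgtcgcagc
Rpl37rt: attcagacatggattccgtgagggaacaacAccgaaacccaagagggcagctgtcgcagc
Rpl34: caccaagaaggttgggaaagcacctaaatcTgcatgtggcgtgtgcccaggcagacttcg
Rpl34-ps1: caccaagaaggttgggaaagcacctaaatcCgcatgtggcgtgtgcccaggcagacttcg

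Rpl37rt, Rpl34-ps1 and Rps27rt, which stood above their parents, were not called either. Rpl37rt measured 382 ± 18 CPM under vehicle and 382 ± 27 CPM under Norrin (SD, n = 4; log2 0.00 ± 0.05). Rpl34-ps1 measured 275 ± 11 and 275 ± 20 CPM (log2 −0.00 ± 0.05), where Rpl34 itself had a log2 fold change of −0.12 ± 0.42. For Rps27rt the values were 87.0 ± 5.2 and 90.8 ± 8.0 CPM (log2 0.06 ± 0.07), beside 0.39 ± 0.29 for Rps27. The copies, with more counts, had the smaller standard errors.

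**Figure D4:**
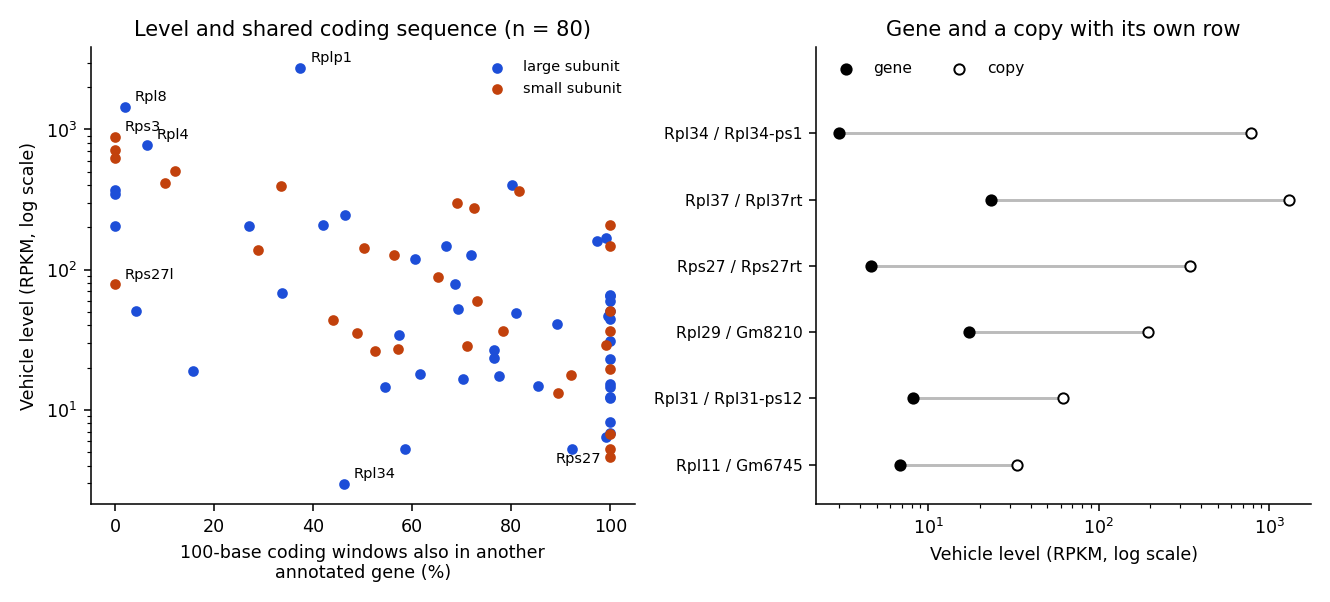
Left, deposited vehicle RPKM (log scale) of 80 genes against the percentage of 100-base windows of the coding sequence that also occur in another annotated gene. Right, deposited vehicle RPKM (log scale) of 6 genes (filled) and of a copy with its own row (open), chosen from the 9 of 18 copies that were higher than their parent, by most for Rpl34 (2.98 and 778 RPKM).

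The authors' deposited fold, a ratio of group RPKM values, went the other way from the counts for 4 genes. For Rps24 the deposited RPKM was 35.3 under vehicle and 30.7 under Norrin in the authors' deposited table, while the counts gave 72.5, 73.0, 76.9 and 65.7 CPM under vehicle and 73.9, 81.5, 81.4 and 76.6 CPM under Norrin. Norrin replicates 2 and 3 lay above every vehicle library, and the log2 fold change of the counts was 0.12. The other 3 were Rpl22, Rpl31 and Rps21, and for Rpl22, Rps24 and Rps27 the values differed by over 0.1 on the log2 scale. The ratio of CPM to RPKM matched the coding length within 2% for 64 of the 81 genes, such as Rpl8 (774 bases) and Rplp1 (345 bases). For Rps24 it corresponded to 2055 bases where the coding sequence has 402, so levels per length are uncertain for such genes.

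The genes moved together from library to library within a group more than they differed between groups. The count of genes above their own group mean was 66, 37, 39 and 31 of 81 in vehicle replicates 1 to 4, and 53, 15, 53 and 12 of 81 in Norrin replicates 1 to 4, where all tested genes gave 49.9% to 51.2% in every library. On the log2 scale, the median deviation lay between −0.04 and 0.06 in the vehicle libraries and between −0.09 and 0.07 in the Norrin libraries. Norrin replicates 1 and 3 were therefore high and replicates 2 and 4 low for most of the 81.

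**Figure D5:**
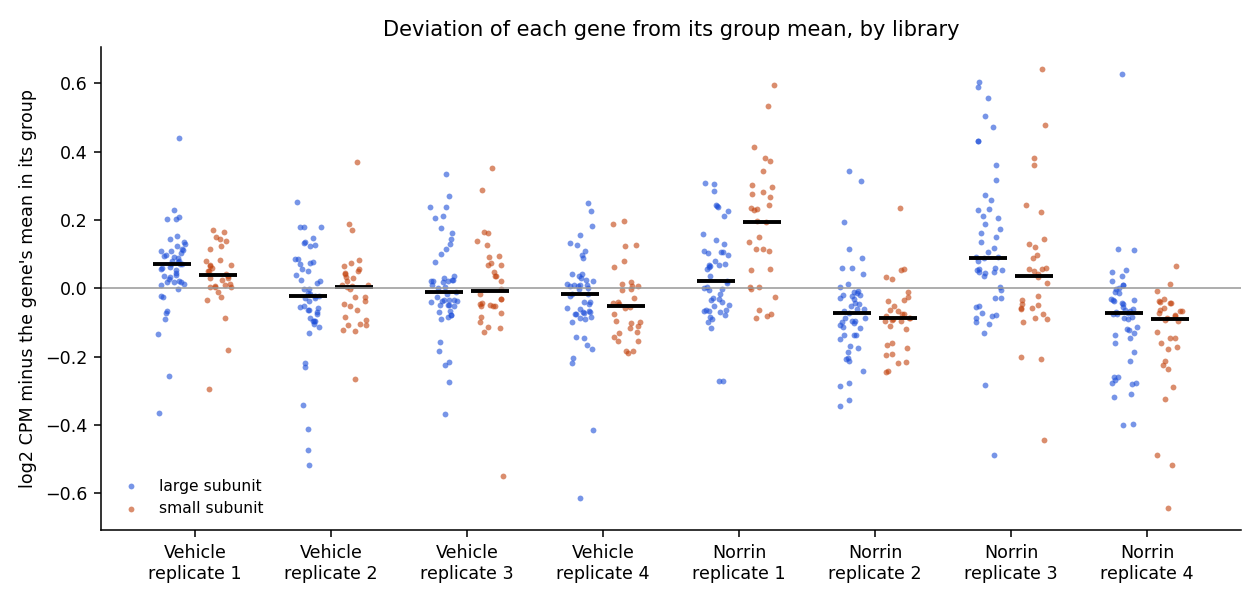
Log2 CPM of each gene minus its mean in its own group, for the 49 large-subunit and 32 small-subunit genes in each of the 8 libraries, with the median of each set as a bar. The small-subunit median reached 0.19 in Norrin replicate 1, and in Norrin replicates 2 and 4 the medians of both sets lay below 0.

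Norrin replicates 1 and 3 were compared with the mean of the other Norrin libraries gene by gene. Each is part of the other's baseline, so the genes high in either overlap little by construction. Replicate 1 was over 1.2-fold above that mean for 23 of the 81 genes, where 11.4% of all tested genes were, among them Rps18 (0.79 on the log2 scale), Rps12 (0.68) and Rps19 (0.49). Rps18 measured 107 CPM there, against 59.5, 60.9 and 63.6 CPM in the other Norrin libraries and 62.6 to 70.7 CPM under vehicle. Replicate 3 was over 1.2-fold above for 21, where 13.5% of all tested genes were, by most for Rps27 (0.84), Rpl7a (0.80), Rpl19 (0.78) and Rpl38 (0.74). Rpl19 measured 49.2 CPM there, against 26.0 to 31.0 CPM in the other Norrin libraries and 27.2 to 30.6 CPM under vehicle.

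Small-subunit genes made up 15 of the 23 in the replicate 1 set and 6 of the 21 in the replicate 3 set. The replicate 1 set was the more abundant, with a median vehicle RPKM of 127 and 51.3% of windows shared, against 18.9 RPKM and 85.3% for the replicate 3 set. Among the 60 genes at 10 CPM or more, 18 were over 1.2-fold high in replicate 1 and 10 in replicate 3, against 6.11% and 5.38% of the 8573 tested genes at that level. Under vehicle, 0, 0, 1 and 0 of those 60 genes stood that far above in replicates 1 to 4, against 6.12%, 4.56%, 4.18% and 4.54% of the tested genes at that level. Of all 81 genes, 3, 2, 7 and 2 did, against 12.5%, 10.7%, 11.6% and 12.3% of all tested genes. The labels name no batch, and what set these libraries apart was not tested.

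By the share of genes above their group mean, some other lists were as high in Norrin replicate 1, but not in replicate 3. In replicate 1, 65.4% of the cytosolic ribosomal protein genes lay above their group mean. The shares there were 71.4% for mitochondrial ribosomal proteins, 69.4% for initiation factors, 76.9% for elongation factors and 59.1% for RNA polymerase I and ribosome assembly. In replicate 3 the cytosolic share was again 65.4%, and those of the other lists, in the same order, were 40.3%, 38.9%, 23.1% and 51.5%. In Norrin replicates 1 to 4, 55, 27, 31 and 40 of 77 mitochondrial ribosomal protein genes, 25, 11, 14 and 17 of 36 initiation factors and 4, 6, 6 and 9 of 12 housekeeping genes lay above their group mean. Replicate 1 was thus high for mitochondrial ribosomal proteins, initiation factors and elongation factors too, while replicate 3 was not. By that share, the shift in replicate 1 was not particular to the cytosolic ribosomal protein genes. By size, the median log2 deviation there was 0.19 for the small-subunit and 0.02 for the large-subunit genes. It was 0.10 for elongation factors, 0.07 for mitochondrial ribosomal proteins, 0.04 for initiation factors and 0.02 for RNA polymerase I and ribosome assembly. Genes over 1.2-fold high were not counted for the other lists.

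The promoter sequences near the start site bear on the oligopyrimidine tract named above. RefSeq windows (GRCm38.p6, 250 bases before to 50 after each start) matched 61 of the 81 genes by symbol, with 72 windows. The transcript began with C in 31.9% of these, against 16.3% of all windows, and with G in 36.1% against 35.6%. CTTTCC, searched on the transcribed strand only and within 15 bases of the start, was found for 9 of 61 genes (14.8%) against 1.67% of all genes with a window. CCGGAAG, a core that ETS-family factors bind, searched on both strands of the whole window, was found for 25 of 61 (41.0%) against 9.93% of all. These motifs can share the bases CC. The genes with a window were not limited to those expressed in these cells. The contrasts are therefore not shown to be particular to ribosomal protein genes. The windows of genes that begin with C and hold CTTTCC at the first to the fifth base are given from 20 bases before the start to 20 bases from the start on, 5′ to 3′ on the gene's strand, with the motif in capitals. They lie at chr14:18270967-18271006 (−) for Rpl15, chr7:4792945-4792984 (+) for Rpl28, chr16:33056462-33056501 (+) for Rpl35a, chr11:114668560-114668599 (+) for Rpl38, chr17:27635225-27635264 (−) for Rps10 and chr3:90213629-90213668 (−) for Rps27.

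Rpl15: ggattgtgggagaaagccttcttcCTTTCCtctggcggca
Rpl28: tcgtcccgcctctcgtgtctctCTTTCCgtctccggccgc
Rpl35a: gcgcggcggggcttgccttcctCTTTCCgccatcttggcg
Rpl38: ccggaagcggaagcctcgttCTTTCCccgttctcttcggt
Rps10: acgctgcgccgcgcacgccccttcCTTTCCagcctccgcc
Rps27: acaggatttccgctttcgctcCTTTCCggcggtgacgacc

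Genes with and without CTTTCC had similar median responses. Those without it can still carry an oligopyrimidine tract of another sequence, so the split does not compare genes with and without a tract. The 9 genes with CTTTCC near the start had a median log2 fold change of 0.05, with 6 above 0, and the 52 without it a median of 0.05, with 32 above 0. None of the 61 was called.

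Lists of genes that make, regulate or work with ribosomes were set beside the 2.17% of all tested genes that were called. At that share, 0 calls in lists of these lengths says little. The 36 initiation factors, 13 elongation factors, 21 regulators of mTORC1 and oligopyrimidine mRNAs, 66 genes of RNA polymerase I and ribosome assembly, 21 chaperone, import and nascent-chain factors, 13 quality control and recycling factors, 77 mitochondrial ribosomal proteins, 12 housekeeping genes and 2 ribosomal pseudogene rows held 0 calls in either direction. Their median log2 fold changes were 0.01, 0.01, 0.03, 0.04, 0.07, 0.02, 0.03, −0.02 and 0.01, beside 0.00 for all tested genes. Of the 5 ribosomal proteins and copies outside the name rule, 0 were called, with a median of 0.00. Among them, Fau had a log2 fold change of 0.03 ± 0.12, Rpl36al of 0.06 ± 0.07 and Rack1, a scaffold on the small subunit, of −0.05 ± 0.04.

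Eef2, which moves the ribosome along the mRNA, measured 2826 ± 93 CPM under vehicle and 2765 ± 95 CPM under Norrin. Larp1 measured 279 ± 9 and 286 ± 13 CPM, and Ncl, the nucleolar protein nucleolin, 2157 ± 53 and 2064 ± 79 CPM (SD, n = 4). For each, the log2 fold change lay within 0.07 of 0.

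Among 16 genes of ribosomal stress and p53 targets, 1 rose and 1 fell, or 12.5% called against 2.17% of all tested genes. The list was chosen with earlier results of these data known, so these shares are a description only. At an unadjusted p under 0.05 in edgeR there were 5 of the 16, where 11.3% of all tested genes were. Plk2, a kinase that p53 induces, rose from 606 ± 11 to 697 ± 16 CPM (log2 0.20 ± 0.04, edgeR, adjusted p = 0.00111). Eda2r, a p53-induced receptor of the TNF receptor family, fell from 27.8 ± 1.2 to 20.5 ± 2.5 CPM (log2 −0.44 ± 0.11, edgeR, adjusted p = 0.0248). The Eda2r call was lost without any of Norrin replicates 1 or 3 or vehicle replicates 1, 2 or 4, where the adjusted p lay between 0.0526 and 0.137. The list's median log2 fold change was −0.05, with 5 of the 16 above 0, and Rps27l, described above, is a p53 target as well.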

How the data were processed

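RNA from 8 cultures was depleted of ribosomal RNA and sequenced in paired ends, per the labels' protocols. In 1 table the authors deposited estimated counts per gene and library, with an RPKM per group and a fold, the Norrin RPKM as a ratio to that of vehicle. STAR, version unnamed, was used going by the submitters' processing notes. Build, annotation, counter and strand setting were not given in the sources used here.

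Of 123616 counts, 763 were not whole, 635 of them by over 0.01, and these were rounded to whole numbers. The table held 1 row without a name or counts, which was left out. Its lowest vehicle RPKM was 0.1 while 439 rows had a lower Norrin RPKM, so genes silent under vehicle may not be in it. The test was edgeR 4.0.16's robust quasi-likelihood test (R 4.3.3, two-sided, TMM factors, filterByExpr), which left out 1786 rows for low counts. P-values of the 13666 genes kept were adjusted by Benjamini-Hochberg and called under 0.05. The step was tested on simulated data. DESeq2 1.42.0, limma 3.58.1, other scalings and filters, GC and length offsets, a replicate block and each library left out in turn were alternatives. Replicates varied by 11.2% (common dispersion 0.0124), and 3 counts equalled 0.193 to 0.241 CPM, for counting error only. Deviations used log2(CPM + 0.5). Coding sequences came from GENCODE vM21 and copies from BLAST 2.17.0.

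Members and gene lists were chosen with earlier results of these data known. Named genes were Rpl8, Rpl4, the 5 lowest p-values in each direction, the 6 highest and 6 lowest vehicle RPKM, P stalk, 5S, tunnel, ubiquitin-fusion, chosen small-subunit and paralogue genes with their parents, and in other lists the called or the 2 most abundant genes. Genes outside this rule (among them Rpl12, Rps18, Rpl19, the copies and Axin2) were chosen after their values were seen. A few genes that the rule or the counts include are not reported here by name.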

Additional observations from a re-analysis of the deposited data

Results flagged for a closer look

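A library stood far from the other 3 of its group in several of the named genes, measured as its gap to the nearest library over the whole range of the group. In Norrin replicate 1 this share was 0.970 for Rps3, 0.907 for Rps27l, 0.894 for Rps26 and 0.834 for the summed share of the small-subunit genes, each being the highest of its group. Under vehicle, the lowest library was replicate 3 for Rpl8 (0.922), replicate 2 for Rpl22l1 (0.868), replicate 4 for Rpl5 (0.854) and replicate 1 for Rps21 (0.844). The highest was replicate 1 for Rpl32l (0.859) and replicate 4 for Rpl39 (0.832). Over all 81 genes, 19 of 162 groups held such a library, 8 of them with Norrin replicate 1 highest. Chance flags about 1 group in 20 where the groups are independent. These genes were measured in the same libraries and moved together, so their count cannot be judged against that rate. What sets such a library apart was not tested.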

How the results depend on the processing

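The count of ribosomal protein genes called was 0 in each direction under all the alternatives, also at thresholds of 0.01 and 0.1. The lowest adjusted p for any of them was 0.172, for Rplp1 with a length trend removed (log2 −0.11). Their median log2 fold change, 0.05, was −0.018 to 0.084 with each library left out, the lowest without Norrin replicate 1, and the genes at an unadjusted p under 0.05 were 0 to 8. The ratio of summed shares was 0.968 to 1.00 with a library left out. The changes of 16 of the 35 named genes, none called, crossed 0 in some setting, 10 of them only with a library left out, at sizes of up to 0.10. Calls over all tested genes were 296, and 206 to 452 with a library left out.

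The labels do not say whether the replicate numbers pair the samples. Deviations from the group mean correlated at −0.08, −0.01, 0.07 and 0.19 between same-numbered libraries. Differently numbered libraries were not compared, so these values cannot settle it. With the replicate number as a block, 405 genes were called in all and 0 ribosomal protein genes, with a median of 0.05. Low counts limit the precision of the 10 genes under 50 counts per library, and whether reads were split between copies cannot be told from this table.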
